A study of Mus musculus with 54 samples.

Results

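Tef, Hlf, Nr1d2, Usp2, Wee1, Bhlhe40, Bhlhe41 and Rora are 8 mouse genes whose transcripts are controlled by the circadian clock but which are not counted among the genes of its core loop. They were chosen by gene symbol, and they are 8 of the 18759 genes, and 9 of the 25917 probe sets, measured on an Affymetrix Mouse Gene 1.1 ST array. Nr1d2 had 2 probe sets and the others 1 each. Gene expression was measured in total RNA from 7 tissues of C57BL6 mice, 14 weeks old, on 54 arrays. The starting age was 11 to 12 weeks in both groups. The swim mice trained for 3 weeks with 2 sessions a day of 90 minutes, at 9 AM and 3 PM with 4 hours of rest between, after 9 days of acclimation in which the sessions grew by 10 minutes. The control mice were of the same strain and age, and the labels do not say what they did during the sessions. Brain, spleen, kidney and both fat depots (visceral and subcutaneous white fat) had 4 swim and 4 control arrays each, liver had 4 swim and 3 control arrays, and skeletal muscle had 3 swim and 4 control arrays. The labels give neither the hour at which tissues were taken, nor the time since the last session, nor whether several tissues came from the same mouse. A p-value here sets a change against the spread between arrays of a group. For clock genes, any difference in that hour between swim and control mice cannot be told apart from swimming.

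In the clock of mammalian cells, CLOCK and BMAL1 (encoded by Arntl) bind E-box sequences and turn on the Per and Cry genes, whose products then hold CLOCK and BMAL1 back. The same E-boxes drive output genes, among them the PAR bZIP factors TEF and HLF, which bind D-box sequences and carry the rhythm on to genes of metabolism and detoxification. NR1D2 (REV-ERB beta) and RORA share a DNA element at which the first represses and the second activates Arntl, and BHLHE40 and BHLHE41 (DEC1 and DEC2) are repressors that bind E-boxes. USP2 is a deubiquitinase and WEE1 a kinase that delays entry into mitosis, and both genes are rhythmic in mouse liver. Clocks of peripheral organs can be set by feeding, temperature and glucocorticoids as well as by the brain's pacemaker.

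Because the 3 binding sequences named above connect these genes, the RefSeq promoter windows of the members were searched for them. The table matched 6 of the 8 genes, Tef with 2 start sites, and held no entry for Wee1 and Bhlhe40. Each window runs from 250 bases before the start to 50 bases after it, in assembly GRCm38.p6. The motifs were searched on both strands. They were a loose D-box pattern (TTANNTAA with any base at N, present in 6.0% of 32851 promoter windows), an E-box (CACGTG, in 7.15%) and a ROR half-site (AGGTCA, in 16.3%). The 4 windows that held a match are printed with the matched bases in capitals, and the Hlf window, which held none, is given for contrast because Hlf and Tef are close relatives.
Tef, start site 1, chr15:81802423-81802722, + strand: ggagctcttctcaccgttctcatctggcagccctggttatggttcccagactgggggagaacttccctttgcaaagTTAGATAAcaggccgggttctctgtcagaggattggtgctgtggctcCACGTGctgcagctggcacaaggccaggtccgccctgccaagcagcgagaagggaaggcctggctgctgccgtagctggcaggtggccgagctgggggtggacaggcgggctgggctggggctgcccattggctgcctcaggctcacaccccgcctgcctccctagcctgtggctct
Tef, start site 2, chr15:81811164-81811463, + strand: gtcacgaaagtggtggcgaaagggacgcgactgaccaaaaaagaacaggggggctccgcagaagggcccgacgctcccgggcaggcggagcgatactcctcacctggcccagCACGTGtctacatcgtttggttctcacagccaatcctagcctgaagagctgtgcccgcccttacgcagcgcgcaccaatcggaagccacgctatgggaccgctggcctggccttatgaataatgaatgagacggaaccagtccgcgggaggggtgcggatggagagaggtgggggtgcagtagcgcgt
Nr1d2, chr14:18239057-18239356, - strand: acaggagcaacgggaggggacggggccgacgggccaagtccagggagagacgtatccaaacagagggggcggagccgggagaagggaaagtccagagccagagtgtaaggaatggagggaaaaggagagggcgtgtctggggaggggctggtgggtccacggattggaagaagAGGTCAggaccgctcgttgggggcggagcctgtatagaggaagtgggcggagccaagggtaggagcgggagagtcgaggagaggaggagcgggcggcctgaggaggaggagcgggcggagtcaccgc
Bhlhe41, chr6:145865371-145865670, - strand: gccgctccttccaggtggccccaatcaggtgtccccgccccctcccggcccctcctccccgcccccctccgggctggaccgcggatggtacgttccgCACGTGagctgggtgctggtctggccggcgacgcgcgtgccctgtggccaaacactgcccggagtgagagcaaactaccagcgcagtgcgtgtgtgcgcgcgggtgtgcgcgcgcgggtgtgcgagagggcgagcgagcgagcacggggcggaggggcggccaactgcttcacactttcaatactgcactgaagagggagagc
Hlf, chr11:90390868-90391167, - strand: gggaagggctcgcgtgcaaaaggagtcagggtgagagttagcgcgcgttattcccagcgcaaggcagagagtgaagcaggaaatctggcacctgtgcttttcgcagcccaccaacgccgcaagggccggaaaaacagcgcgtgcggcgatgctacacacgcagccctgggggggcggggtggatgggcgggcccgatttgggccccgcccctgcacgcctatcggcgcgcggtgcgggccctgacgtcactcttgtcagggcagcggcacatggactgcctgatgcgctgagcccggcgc
The first Tef window held TTAGATAA, a match to the loose D-box pattern, whose first base lay at -174 relative to the start. Whether TEF or HLF binds this stretch was not tested. The same window held an E-box at -127, and the second Tef window held an E-box at -138. The Bhlhe41 window held an E-box at -153 and the Nr1d2 window a ROR half-site at -77. The Hlf, Usp2 and Rora windows held none of the 3 motifs. A match is a description of the letters in the window, and no match says only that the letters are not in these 300 bases.

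The deposited intensities were log2 transformed after adding 16 and quantile normalized within each tissue, and a change is the swim mean minus the control mean on that log2 scale. The median intensity of an array ranged from 45.92 to 118.65, and before normalization the 75th percentile differed up to 1.89-fold between arrays of a group. Every tissue had its own defining markers at a high level: the mean log2 level over the list was 12.41 to 12.48 in swim and 12.37 to 12.63 in control arrays for adipocyte markers in visceral fat, 13.65 to 13.73 and 13.62 to 13.74 for hepatocyte markers in liver, 12.6 to 12.68 and 12.68 to 12.75 for tubule markers in kidney, 11.42 to 11.7 and 11.42 to 11.53 for B cell markers in spleen, 12.18 to 12.32 and 12.2 to 12.4 for neuron markers in brain, and 13.82 to 13.88 and 13.89 to 13.92 for skeletal muscle markers in muscle. Subcutaneous fat was mixed. Its adipocyte list ranged from 11.25 to 12.17 in swim and 10.47 to 12.27 in control arrays, its B cell list from 5.24 to 10.16 and 5.54 to 11.18, and its lymph node list from 6.43 to 9.39 and 7.12 to 10.53. Kidney tubule markers reached 11.91 in swim array 22, against 4.97 to 5.15 in controls, and muscle markers reached 10.33 in swim array 23, against 5.73 to 7.38 in controls. In liver, muscle markers reached 8.90 in control array 52, against 5.21 to 5.42 in swim arrays. In spleen, hepatocyte markers ranged from 5.65 to 7.64 in swim and 5.18 to 10.5 in control arrays, the highest in control array 26, and pancreas markers from 5.76 to 7.37 and 6.19 to 8.02. In muscle, adipocyte markers ranged from 8.04 to 9.23 in swim and 7.25 to 8.43 in control arrays, the highest in swim array 46, and in brain muscle markers reached 7.93 in control array 36, against 6.02 to 6.11 in swim arrays. Fewer cells of a type and less RNA per cell cannot be told apart in such bulk samples.

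Nearly all of the 8 genes were higher after swimming in visceral fat, liver and kidney, fewer passed the test in muscle and spleen, and none passed in brain or subcutaneous fat. In visceral fat all 8 were tested and all 8 rose (limma, adjusted p under 0.05 over all genes), with a median change of 1.19, where 11.3% of 11463 genes rose and 12.1% fell and the median of all genes was -0.03. In liver 6 of 8 rose, against 1.84% of all genes called higher and 2.16% lower, with a median change of 1.09 for the 8 and -0.00058 for all genes. In kidney 7 of 8 rose, where 10.8% of genes rose and 13.6% fell, with a median of 0.50. The liver and kidney counts include Bhlhe41, which was above the signal filter there only through its swim arrays. In muscle 4 of 8 rose, where 5.68% of genes rose and 5.68% fell, with a median of 0.34. In spleen 2 of the 6 members above the signal filter rose, where 7.04% of genes rose and 6.97% fell, and Hlf and Usp2 lay in the lowest 40% of probe sets there and were not tested. In brain none of 8 passed, where 0.43% of genes rose and 0.0516% fell, with a median of 0.14. In subcutaneous fat none of 8 passed, although the median change, 1.5, was the highest of the 7 tissues. There 0% of genes passed in the upward and 0% in the downward direction. No member fell in any tissue in these fits. With values as deposited Bhlhe40 in spleen fell by 0.40 (limma adjusted p = 0.0186). In that setting 5061 of 11365 spleen genes were called lower and 66 higher, and the median of all genes was -0.273. With those values only Bhlhe41 passed in kidney and only Hlf in muscle. With arrays centred on their medians in place of quantile normalization, the split over all genes was 697 higher and 4512 lower in visceral fat, 735 and 2056 in kidney and 281 and 1350 in spleen.

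Every swim array lay above every control array for 7 of the 8 genes in visceral fat, 7 of 8 in liver, 7 of 8 in kidney, 5 of 8 in muscle, 2 of the 6 tested in spleen, 1 of 8 in brain and 6 of 8 in subcutaneous fat. The same was true of 13.3% of all tested genes in visceral fat, 9.93% in liver, 12.5% in kidney, 12.9% in muscle, 12.8% in spleen, 6% in brain and 3.54% in subcutaneous fat. The single gene in brain is read as no result beside that background. The liver and kidney counts again include Bhlhe41, above the filter there only through its swim arrays.

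**Figure D1:**
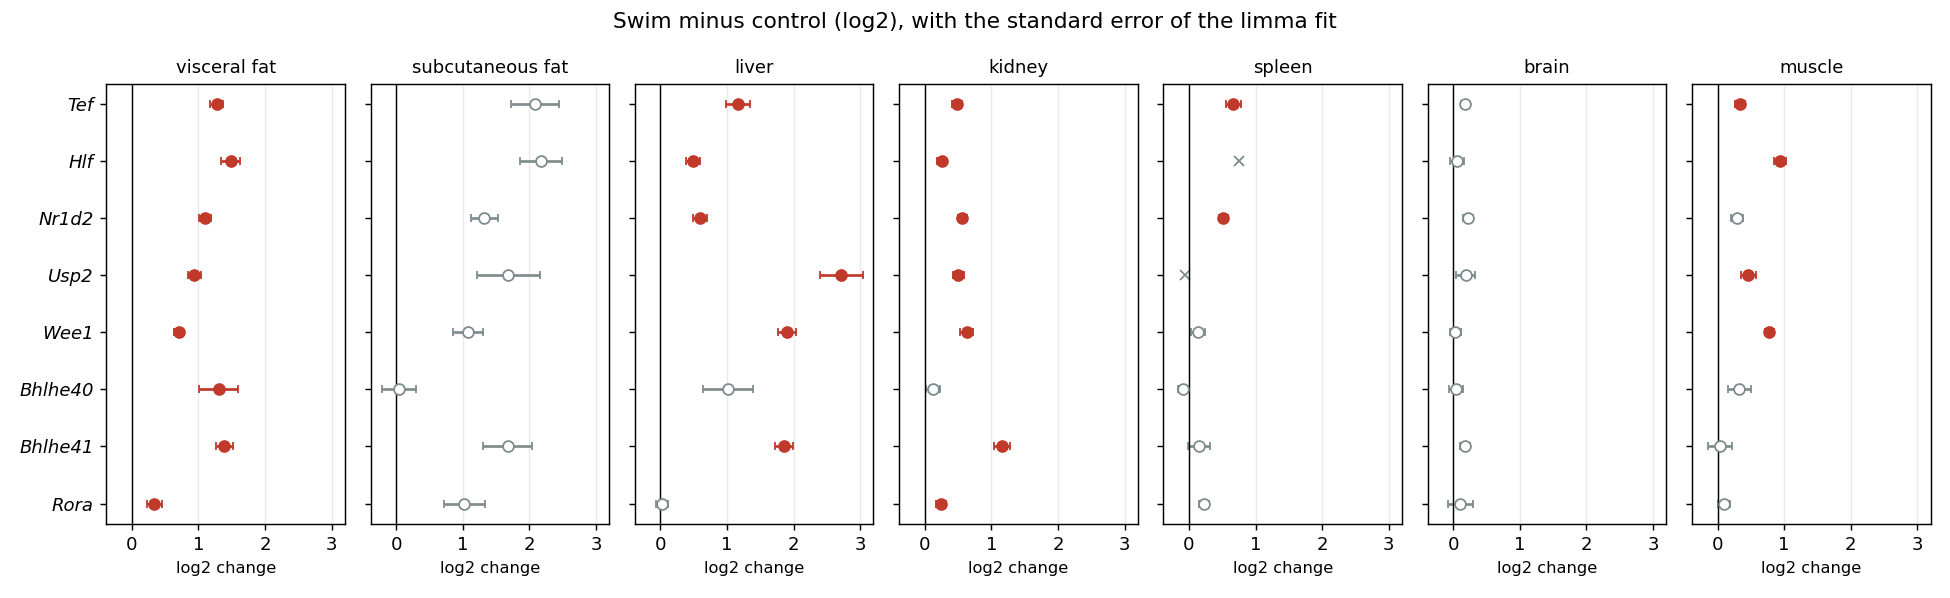
Change of each gene on the log2 scale (x axis, swim minus control) in the 7 tissues, with the standard error of the limma fit as bars. Filled red points passed an adjusted p of 0.05, open points did not, and crosses in spleen (Hlf and Usp2) were below the signal filter and not tested. The point farthest right is that of subcutaneous fat, where none passed, for Tef, Hlf, Nr1d2 and Rora, that of liver for Usp2 (2.71), Wee1 and Bhlhe41, and that of visceral fat for Bhlhe40.

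TEF and HLF are the PAR bZIP transcription factors of the set. In visceral fat Tef stood at 10.16, 10.01, 10.02 and 10.03 in swim arrays, against 8.67, 8.90, 8.62 and 8.94 in controls. Hlf stood at 7.90, 7.97, 8.23 and 7.87 in swim arrays, against 6.40, 6.93, 6.28 and 6.41 in controls. Every swim array lay above every control array for both genes, and the changes were 1.27 ± 0.09 for Tef (standard error, limma adjusted p = 8.59e-05) and 1.49 ± 0.14 for Hlf (limma adjusted p = 0.000292), or 2.41-fold and 2.80-fold.

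In liver Tef stood at 9.74, 9.76, 9.59 and 9.58 in swim arrays, against 8.02, 8.67 and 8.82 in controls, a change of 1.16 ± 0.18 (limma adjusted p = 0.0163). Hlf stood at 9.37, 9.49, 9.32 and 9.13 in swim livers, against 8.69, 8.94 and 8.90 in control livers, a change of 0.49 ± 0.10 (limma adjusted p = 0.0406). The groups did not overlap for either gene, and the Hlf change was the smaller. Without swim array 54 the Tef change was 1.13 with limma adjusted p = 0.0522, and Hlf passed in only 1 of the 7 fits that left out 1 liver array. In kidney Tef stood at 10.05, 9.92, 10.09 and 10.00 in swim arrays, against 9.58, 9.63, 9.30 and 9.62 in controls, a change of 0.48 ± 0.08 (limma adjusted p = 0.00212). Hlf stood at 9.68, 9.61, 9.62 and 9.48 in swim kidneys, against 9.18, 9.43, 9.33 and 9.43 in control kidneys, a change of 0.26 ± 0.07 (limma adjusted p = 0.0223). Both kidney changes were small beside those in visceral fat, and again no array crossed between groups. The Hlf call in kidney was lost without swim array 13, at adjusted p = 0.0559, and without swim array 15, at adjusted p = 0.0539.

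In muscle the change of Hlf was the larger in value. Hlf stood at 8.50, 8.42 and 8.43 in swim muscle, against 7.54, 7.49, 7.31 and 7.71 in control muscle, a change of 0.94 ± 0.09 (limma adjusted p = 0.00502). Tef stood at 10.09, 10.14 and 10.08 in swim muscle, against 9.62, 9.87, 9.71 and 9.83 in control muscle, a change of 0.34 ± 0.07 (limma adjusted p = 0.029). The groups were apart for both, but Tef kept its call in only 2 of the 7 fits that left out 1 muscle array, with changes of 0.30 to 0.38. In spleen Tef stood at 7.80, 7.63, 7.73 and 7.76 in swim arrays, against 7.26, 7.04, 6.70 and 7.25 in controls, a change of 0.67 ± 0.12 (limma adjusted p = 0.0126). Hlf in spleen lay below the signal filter, at 6.38, 6.09, 6.33 and 6.09 in swim arrays against 5.51, 5.52, 5.18 and 5.66 in controls, a difference of 0.75 that was not tested. In brain Tef ranged from 9.48 to 9.66 in swim and 9.36 to 9.49 in control arrays, with a change of 0.17 (95% interval 0.04 to 0.30, limma adjusted p = 0.216). Hlf in brain ranged from 9.49 to 9.80 in swim and 9.27 to 9.64 in control arrays, with a change of 0.06 (95% interval -0.18 to 0.30, limma adjusted p = 0.813). The brain intervals of both genes ended at 0.30.

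NR1D2 and RORA are nuclear receptors that act on the same element with opposite sign. Nr1d2 stood at 9.86, 9.85, 9.98 and 9.69 in swim visceral fat, against 8.65, 8.92, 8.74 and 8.66 in control visceral fat, a change of 1.10 ± 0.09 (limma adjusted p = 0.00015). It stood at 9.98, 10.00, 10.08 and 9.89 in swim livers, against 9.13, 9.51 and 9.52 in control livers, a change of 0.60 ± 0.11 (limma adjusted p = 0.0234). Every swim array lay above every control array in each of the 7 tissues, as it did for 3 of the 8577 genes tested in all of them (0.035%), the other two being Per2 and Per3. It stood at 9.83, 9.86, 9.83 and 9.75 in swim kidneys, against 9.11, 9.37, 9.15 and 9.38 in control kidneys, a change of 0.57 ± 0.07 (limma adjusted p = 0.000577). It stood at 8.39, 8.19, 8.40 and 8.28 in swim spleens, against 7.77, 7.83, 7.71 and 7.89 in control spleens, a change of 0.52 ± 0.06 (limma adjusted p = 0.0062). The kidney and spleen calls were kept when any 1 array was left out, but with values as deposited the changes were 0.63 in kidney (limma adjusted p = 0.628) and 0.21 in spleen (limma adjusted p = 0.14). Without spleen control array 26, which had the highest hepatocyte markers, the spleen changes of Tef and Nr1d2 were 0.66 and 0.53, and both passed. The liver call was lost without swim array 53, 54 or 55, at adjusted p of 0.0626, 0.067 and 0.0583.

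In muscle Nr1d2 stood at 9.99, 10.22 and 10.23 in swim arrays, against 9.77, 9.95, 9.76 and 9.94 in controls, a change of 0.29 ± 0.09 (limma adjusted p = 0.0618) that missed the threshold and met it without swim array 45, at 0.37 and adjusted p = 0.0366. In brain it stood at 9.51, 9.55, 9.58 and 9.84 in swim arrays, against 9.34, 9.34, 9.44 and 9.47 in controls, a change of 0.22 ± 0.08 (95% interval 0.03 to 0.41, limma adjusted p = 0.243). Its groups were apart in brain, as were those of 6% of all genes in the same direction. The second Nr1d2 probe set lay below the signal filter in all 7 tissues, and its differences ranged from -0.17 in muscle to 0.61 in liver.

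Rora had the lowest average change of the 8. It stood at 9.40, 9.68, 9.67 and 9.49 in swim visceral fat, against 9.34, 8.94, 9.27 and 9.33 in control visceral fat, a change of 0.34 ± 0.11 (limma adjusted p = 0.0485). It stood at 9.44, 9.65, 9.49 and 9.44 in swim kidneys, against 9.33, 9.33, 9.32 and 9.07 in control kidneys, a change of 0.24 ± 0.07 (limma adjusted p = 0.0391). Each of the calls was kept in 1 of the 8 fits that left out an array, and with arrays centred on their medians the visceral fat change was 0.02. In liver Rora ranged from 9.86 to 10.09 in swim and 9.79 to 10.12 in control arrays, with a change of 0.02 (95% interval -0.20 to 0.25, limma adjusted p = 0.917). In spleen it ranged from 7.13 to 7.38 in swim and 6.90 to 7.13 in control arrays, with a change of 0.23 ± 0.07 (limma adjusted p = 0.0665). In muscle it ranged from 10.35 to 10.62 in swim and 10.26 to 10.52 in control arrays, with a change of 0.09 (limma adjusted p = 0.517). Brain gave the widest spread of Rora within a swim group, from 9.72 in array 37 to 10.75 in array 40, against 10.00 to 10.20 in controls, with a change of 0.10 (95% interval -0.33 to 0.54, limma adjusted p = 0.815).

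**Figure D2:**
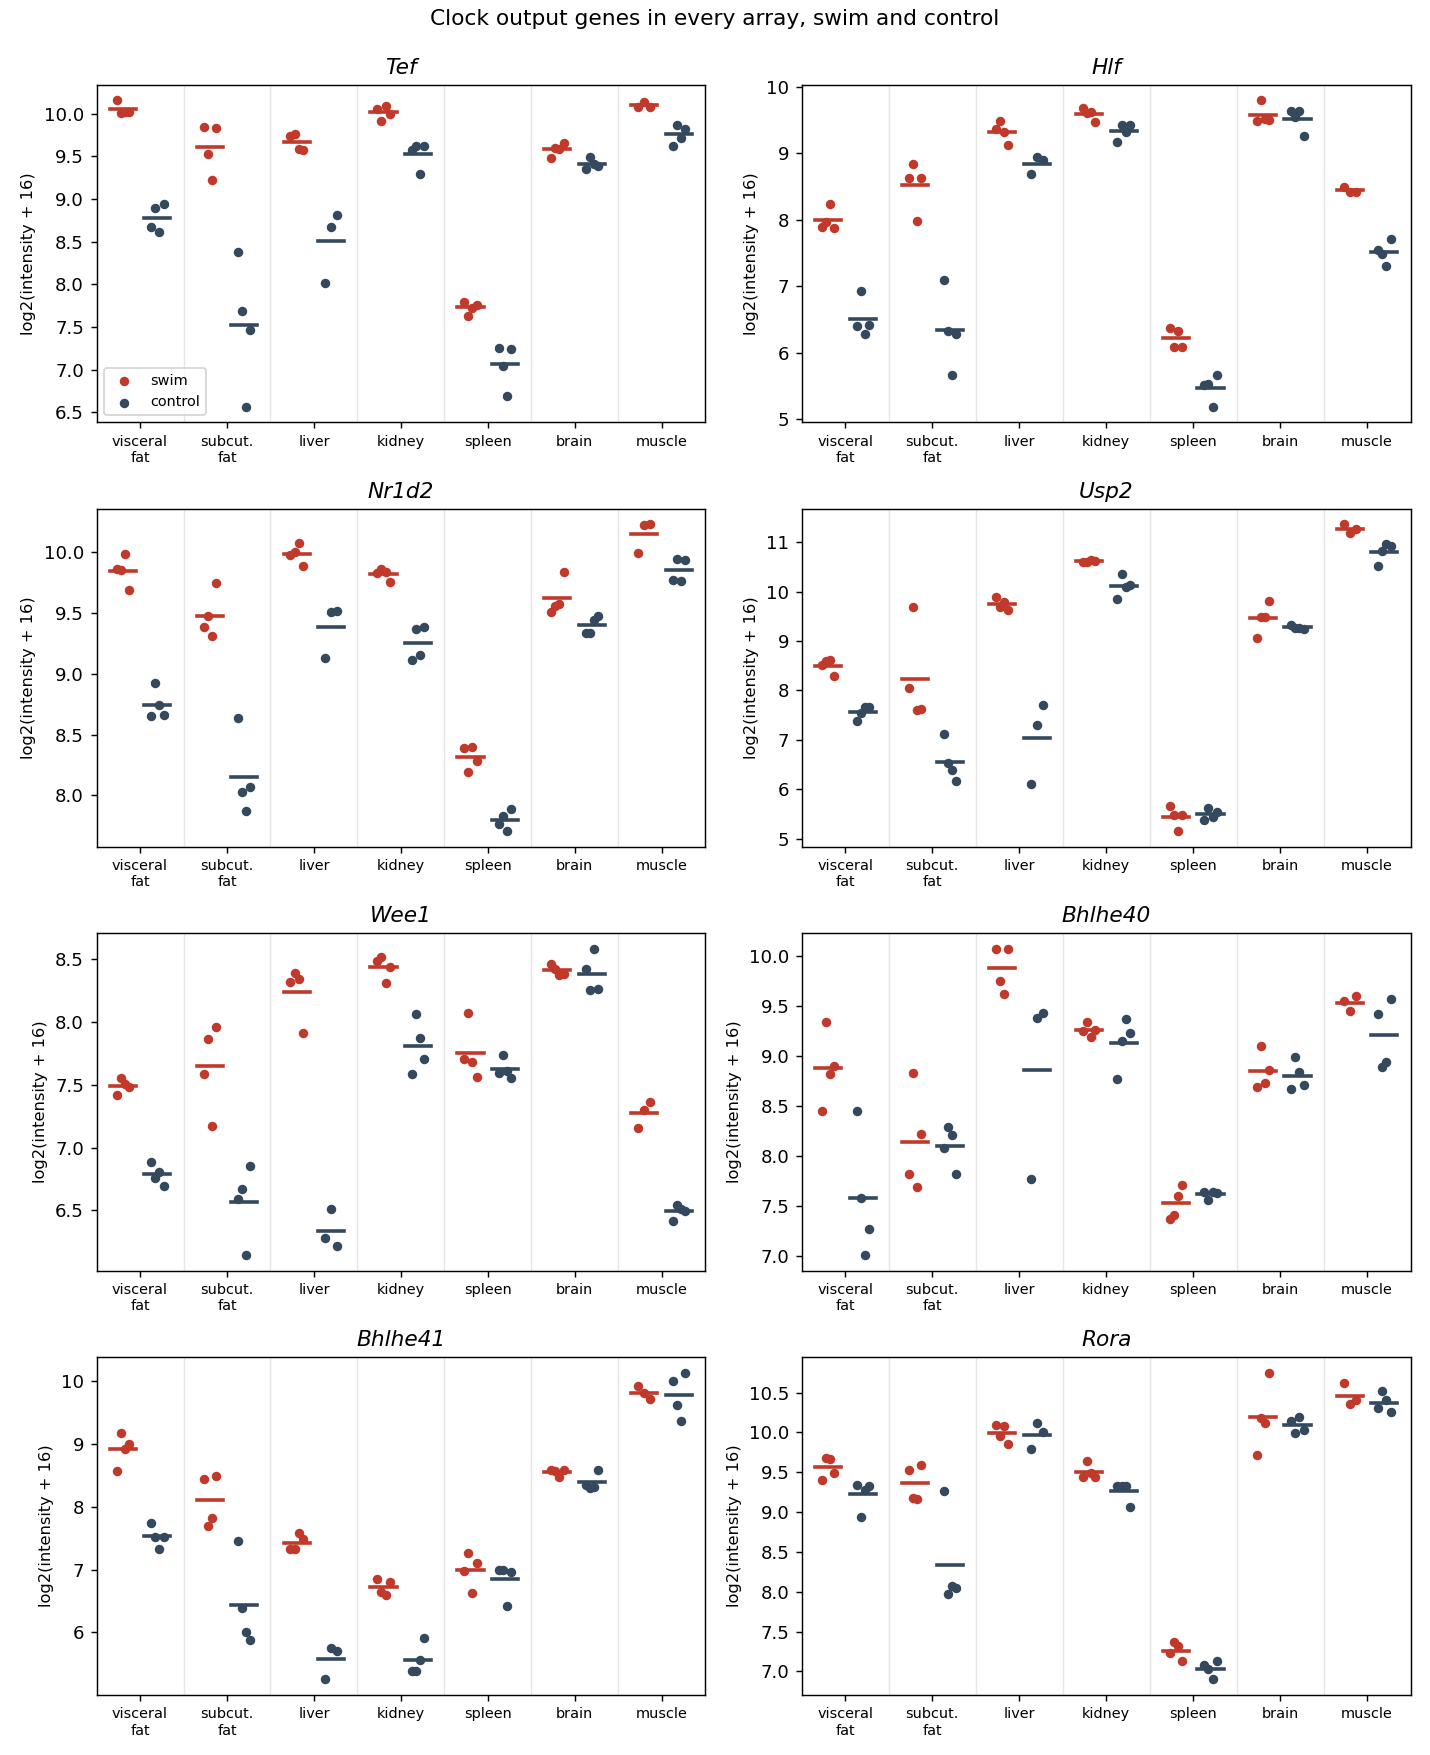
Level of each gene in every array (y axis, log2(intensity + 16), quantile normalized within each tissue), with swim arrays in red to the left of control arrays in dark grey and a bar at each group's mean. The red points lie above all grey points for Nr1d2 in every tissue, and the control arrays of subcutaneous fat spread widely for most genes.

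BHLHE40 and BHLHE41 are closely related E-box repressors, and Bhlhe41 passed in 3 tissues and Bhlhe40 in 1. Bhlhe41 stood at 8.58, 9.18, 8.92 and 9.01 in swim visceral fat, against 7.74, 7.52, 7.33 and 7.51 in control visceral fat, a change of 1.39 ± 0.13 (limma adjusted p = 0.000268). It stood at 7.32, 7.33, 7.58 and 7.49 in swim livers, against 5.25, 5.76 and 5.71 in control livers, a change of 1.86 ± 0.13 (limma adjusted p = 0.000915). In both tissues the gap between groups exceeded the range within either. It stood at 6.84, 6.64, 6.60 and 6.81 in swim kidneys, against 5.39, 5.39, 5.56 and 5.92 in control kidneys, a change of 1.16 ± 0.11 (limma adjusted p = 0.000259). The control means lay at the 38.7th percentile of all probe sets in liver and the 35th in kidney, under the level of the 40% filter, so that in these 2 tissues Bhlhe41 was tested only because the swim arrays were higher, and the size of its change depended on the setting, from 1.20 to 2.29 in liver and from 0.69 to 1.503 in kidney. The 3 calls held in every fit with 1 array left out and in every other setting in which Bhlhe41 was tested. In muscle, where Bhlhe41 was most abundant, it ranged from 9.72 to 9.92 in swim and 9.36 to 10.13 in control arrays, with a change of 0.04 (95% interval -0.37 to 0.44, limma adjusted p = 0.898). In spleen it ranged from 6.63 to 7.26 in swim and 6.41 to 7.001 in control arrays, with a change of 0.15 (limma adjusted p = 0.553). In brain it ranged from 8.48 to 8.59 in swim and 8.30 to 8.59 in control arrays, with a change of 0.17 (95% interval -0.002 to 0.34, limma adjusted p = 0.313).

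Bhlhe40 rose in visceral fat and passed in none of the other 6 tissues in these fits. It stood at 8.45, 9.34, 8.82 and 8.90 in swim visceral fat, against 8.45, 7.57, 7.003 and 7.27 in control visceral fat, a change of 1.30 ± 0.29 (limma adjusted p = 0.0121). Control array 1 reached the level of swim array 5, so the groups touched. In liver it stood at 10.07, 9.74, 9.62 and 10.07 in swim arrays, against 7.77, 9.37 and 9.43 in controls, a change of 1.02 ± 0.38 (limma adjusted p = 0.168) that missed the threshold. Control array 49 lay far below the other 2 liver controls, and without it the change was 0.48 (limma adjusted p = 0.163). The liver change passed with values as deposited (limma adjusted p = 1.59e-05), with arrays centred on their medians (0.0475) and in 1 fit of all 54 arrays (0.0217), 3 of 11 settings. In kidney Bhlhe40 ranged from 9.19 to 9.33 in swim and 8.77 to 9.37 in control arrays, with a change of 0.13 (limma adjusted p = 0.424). In muscle it ranged from 9.45 to 9.60 in swim and 8.89 to 9.57 in control arrays, with a change of 0.33 ± 0.17 (limma adjusted p = 0.226). In spleen, brain and subcutaneous fat the changes were -0.09, 0.04 and 0.04, with adjusted p of 0.425, 0.873 and 0.924 (limma).

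USP2 removes ubiquitin from other proteins, and its gene showed the largest change of the 8 in any tissue. In liver Usp2 stood at 9.89, 9.69, 9.78 and 9.63 in swim arrays, against 6.11, 7.30 and 7.70 in controls, a change of 2.71 ± 0.32 or 6.56-fold (limma adjusted p = 0.00783). The control livers spread over more than a log2 unit while the swim livers stayed close together, and by size the change was the tenth in liver. Without control array 52, the array with muscle markers, the change was 3.07 with limma adjusted p = 0.00454, and without control array 49, the lowest, it was 2.25 with limma adjusted p = 0.000914, each a fit of 4 swim against 2 control arrays. In visceral fat Usp2 stood at 8.51, 8.60, 8.61 and 8.30 in swim arrays, against 7.37, 7.55, 7.67 and 7.66 in controls, a change of 0.94 ± 0.10 (limma adjusted p = 0.000468). In kidney it stood at 10.59, 10.59, 10.65 and 10.63 in swim arrays, against 9.85, 10.35, 10.09 and 10.13 in controls, a change of 0.51 ± 0.09 (limma adjusted p = 0.00309). The 4 swim kidneys lay closer together than the controls. In muscle it stood at 11.36, 11.18 and 11.26 in swim arrays, against 10.51, 10.82, 10.96 and 10.92 in controls, a change of 0.47 ± 0.11 (limma adjusted p = 0.0387) that was kept in 1 of the 7 fits with an array left out. Without swim array 46, which had the highest adipocyte markers, Hlf and Wee1 passed in muscle, and Tef and Usp2 did not, at adjusted p of 0.103 and 0.0913. In brain it ranged from 9.05 to 9.81 in swim and 9.24 to 9.32 in control arrays, with a change of 0.19 (95% interval -0.13 to 0.50, limma adjusted p = 0.545). In spleen it was below the filter, at 5.15 to 5.66 in swim and 5.38 to 5.62 in control arrays.

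WEE1 phosphorylates CDK1 and so holds cells before mitosis. Wee1 stood at 8.32, 8.39, 8.34 and 7.91 in swim livers, against 6.28, 6.51 and 6.22 in control livers, a change of 1.90 ± 0.13 or 3.74-fold (limma adjusted p = 0.000874). It stood at 7.15, 7.30 and 7.36 in swim muscle, against 6.42, 6.55, 6.51 and 6.50 in control muscle, a change of 0.78 ± 0.07 (limma adjusted p = 0.00395). The groups were well apart in both tissues. In visceral fat it stood at 7.41, 7.56, 7.50 and 7.48 in swim arrays, against 6.89, 6.76, 6.81 and 6.70 in controls, a change of 0.70 ± 0.07 (limma adjusted p = 0.000425). In kidney it stood at 8.48, 8.51, 8.31 and 8.43 in swim arrays, against 7.59, 8.06, 7.87 and 7.70 in controls, a change of 0.63 ± 0.09 (limma adjusted p = 0.00161). All 4 calls held with any 1 array left out, but with values as deposited those in kidney and muscle were lost, at limma adjusted p of 0.213 and 0.0856. In spleen Wee1 ranged from 7.56 to 8.07 in swim and 7.55 to 7.73 in control arrays, with a change of 0.13 (limma adjusted p = 0.403), and in brain from 8.37 to 8.46 in swim and 8.26 to 8.58 in control arrays, with a change of 0.03 (95% interval -0.15 to 0.21, limma adjusted p = 0.886). Of the other genes of mitotic entry fixed in a list with WEE1's partners, CDC25 phosphatases and cyclins among them, 7 were on the array. Above the filter and tested were 3 in visceral fat, 4 in liver, 4 in kidney, 3 in muscle and 3 in brain. In subcutaneous fat 5 were tested, and in spleen all 7. The only call in any tissue was Cdc25b in visceral fat, at 0.36 (limma adjusted p = 0.0142), where 11.3% of all genes rose.

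Subcutaneous fat gave large differences that did not pass. Tef stood at 9.85, 9.53, 9.23 and 9.84 in swim arrays, against 8.38, 7.69, 6.56 and 7.46 in controls, a difference of 2.09 ± 0.36 (95% interval 1.26 to 2.91, limma adjusted p = 0.193). Hlf stood at 8.63, 8.83, 7.97 and 8.62 in swim arrays, against 7.10, 6.32, 5.66 and 6.28 in controls, a difference of 2.18 ± 0.32 (95% interval 1.45 to 2.90, limma adjusted p = 0.166). Every swim array lay above every control array except for Bhlhe40 and Rora. Nr1d2 stood at 9.38, 9.47, 9.31 and 9.74 in swim arrays, against 8.64, 8.03, 7.88 and 8.07 in controls, a difference of 1.32 ± 0.20 (limma adjusted p = 0.166). Bhlhe41 stood at 8.44, 7.69, 7.82 and 8.49 in swim arrays, against 7.46, 6.39, 6.01 and 5.88 in controls, a difference of 1.68 ± 0.37 (limma adjusted p = 0.203). For Hlf, Nr1d2, Usp2, Bhlhe41, Tef and Rora control array 17 was the highest of its group. Rora stood at 9.53, 9.18, 9.16 and 9.59 in swim arrays, against 9.27, 7.97, 8.08 and 8.04 in controls, a difference of 1.02 ± 0.30 (limma adjusted p = 0.205). Usp2 stood at 8.05, 9.69, 7.60 and 7.62 in swim arrays, against 7.12, 6.54, 6.40 and 6.17 in controls, a difference of 1.69 ± 0.47 (limma adjusted p = 0.203). The high Usp2 value belonged to swim array 22, which also carried the kidney tubule markers, and without it the difference was 1.21. Wee1 stood at 7.59, 7.86, 7.17 and 7.96 in swim arrays, against 6.59, 6.67, 6.14 and 6.86 in controls, a difference of 1.08 ± 0.23 (limma adjusted p = 0.203). Bhlhe40 ranged from 7.68 to 8.83 in swim and 7.82 to 8.28 in control arrays.

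Without control array 17, 7 of the 8 genes, all but Bhlhe40, passed in subcutaneous fat, with limma adjusted p of 0.0136 to 0.0275, and 3976 of all genes passed where none had. The same 7 passed with arrays weighted by their quality, where 5715 genes passed, and in 1 fit of all 54 arrays, where 6626 did. With the B cell list's mean as a covariate none passed, and the differences of Hlf and Tef were 1.87 and 1.71 (limma adjusted p = 0.0832 and 0.0936). The covariate took the difference of Rora to 0.65 (limma adjusted p = 0.193) and that of Bhlhe41 to 1.21 (limma adjusted p = 0.0832), while those of Nr1d2, Wee1 and Usp2 were 1.13, 0.99 and 1.63. The part of the other cell types named above in these differences was not tested further.

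Macrophage markers were lower after swimming in liver, kidney, spleen and muscle. The mean of the list was also lower in brain and subcutaneous fat, where none of the 8 genes passed. Of the tested markers, 7 of 7 fell in liver, 7 of 8 in kidney, 7 of 8 in spleen and 3 of 8 in muscle. Of all genes, 2.16%, 13.6%, 6.97% and 5.68% fell in these tissues. In visceral fat 2 of 9 markers rose and 1 fell, and none of 7 in brain or of 9 in subcutaneous fat passed. The mean log2 level was taken over the 9 listed genes on the array, tested or not. It was 7.24 to 7.69 in swim and 8.06 to 8.2 in control livers, and 6.57 to 6.70 in swim and 7.06 to 7.30 in control kidneys. Their part in the changes of the 8 genes was not tested.

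The change was then set between tissues in a fit of all 54 arrays. The fit and its variant with each tissue's own spread took the arrays as independent, as did the test of levels at rest below. The labels do not say whether several tissues came from the same mouse. If they did, the standard errors and p-values across tissues given here would not hold as printed. Averaged over the 7 tissues with equal weight, all 8 genes were higher after swimming, where 13.9% of 14847 genes were called higher and 15.9% lower. The average was 0.92 ± 0.09 for Usp2, 0.92 ± 0.08 for Bhlhe41, 0.88 ± 0.06 for Tef, 0.88 ± 0.06 for Hlf, 0.75 ± 0.05 for Wee1, 0.66 ± 0.04 for Nr1d2, 0.39 ± 0.11 for Bhlhe40 and 0.29 ± 0.06 for Rora. The least of them, Bhlhe40 and Rora, had limma adjusted p of 0.00648 and 0.000391, and 0.000592 and 0.000578 when each tissue kept its own spread. These averages count the mixed subcutaneous fat, where no member passed, as much as any other tissue. Its differences of 2.18 for Hlf, 2.09 for Tef and 1.02 for Rora were the largest of the 7 tissues for those genes. The size differed between tissues for 7 of the 8 genes (limma F test), where 40.1% of all genes differed, or 36.3% with each tissue's own spread. Wee1 had the lowest adjusted p, 7.46e-11, or 3.55e-07 with its own spread, and ranked sixth of 14847 genes. Rora did not pass, at 0.186 and 0.144.

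A tissue was called different from the mean of the other 6 only where both weightings passed. Visceral fat was called for 6.86% of genes, and among the 8 for Bhlhe40 (1.06 above the others, limma adjusted p = 0.0118, 0.0483 with own spread), Hlf (0.71) and Nr1d2 (0.51). Liver was called for 2.84% of genes, and for Usp2 (2.09, limma adjusted p = 8.91e-09, 0.00943 with own spread), Wee1 (1.35) and Bhlhe41 (1.09). Bhlhe41 was above the filter in liver only through its swim arrays, so its call there carries that limit. The 3 genes called in liver encode a deubiquitinase, a kinase and an E-box repressor.

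Brain was called for 0.929% of genes, and its change was below that of the other tissues for Hlf (-0.96), Bhlhe41 (-0.88), Usp2 (-0.86), Wee1 (-0.84), Tef (-0.83) and Nr1d2 (-0.51). Spleen was called for 8.71% of genes and was below for Usp2 (-1.14), Bhlhe41 (-0.90) and Wee1 (-0.72). Usp2 lay below the signal filter in spleen. Muscle was called for 5.02% of genes and was below for Bhlhe41 (-1.03), Tef (-0.63) and Nr1d2 (-0.43). Kidney was called for 4.55% of genes and was below for Hlf (-0.73) and Tef (-0.47). Subcutaneous fat was called for 0% of genes. Without the subcutaneous arrays the kidney difference of Tef was -0.24 (limma adjusted p = 0.158) and the brain difference of Usp2 was -0.73 (limma adjusted p = 0.0607), so these 2 calls rested on including that tissue. Without it Tef and Bhlhe41 in visceral fat, at 0.70 and 0.72 (limma adjusted p = 0.000823 and 0.013), and Tef in liver, at 0.58 (limma adjusted p = 0.00633), met the threshold. With 1 spread pooled over all tissues, Tef and Hlf in kidney (limma adjusted p = 0.543 and 0.0725), Usp2 and Bhlhe41 in brain (0.22 and 0.0588) and Tef in muscle (0.105) no longer passed.

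At rest, in the control mice alone, all 8 genes differed between tissues (limma F test, adjusted p under 0.05), as 99.2% of genes did, so that the order is the informative part. These levels are means of log2(intensity + 16) after quantile normalization over all 54 arrays, and levels of different genes are not set against each other. Skeletal muscle was highest for Tef, Nr1d2, Usp2, Bhlhe40, Bhlhe41 and Rora, and brain for Hlf and Wee1. Spleen was lowest for Tef, Hlf, Nr1d2, Usp2 and Rora. Hlf and Usp2 in spleen, and Bhlhe41 in liver and kidney, lay under the level of the 40% filter, and a range is given over the tissues above it.

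Usp2 had the widest range, 19.7-fold from muscle to subcutaneous fat, with spleen under the filter level. It averaged 10.76 ± 0.20 in muscle (SD), 10.01 ± 0.21 in kidney and 9.19 ± 0.04 in brain, then 7.51 ± 0.13 in visceral fat, 7.24 ± 0.76 in liver, 6.46 ± 0.42 in subcutaneous fat and 5.42 ± 0.10 in spleen. Visceral fat overlapped liver, and liver overlapped subcutaneous fat, while the other neighbours were apart. Hlf spanned 9.33-fold from brain to subcutaneous fat, with 9.47 ± 0.20 in brain, 9.26 ± 0.12 in kidney, 8.85 ± 0.11 in liver, 7.82 ± 0.15 in muscle, 6.52 ± 0.27 in visceral fat, 6.24 ± 0.60 in subcutaneous fat and 5.39 ± 0.20 in spleen. Brain overlapped kidney, visceral fat overlapped subcutaneous fat, and subcutaneous fat overlapped spleen. Bhlhe41 spanned 10.9-fold from muscle to subcutaneous fat, with 9.80 ± 0.32 in muscle, 8.20 ± 0.15 in brain, 7.48 ± 0.16 in visceral fat, 6.75 ± 0.29 in spleen, 6.34 ± 0.75 in subcutaneous fat, 5.75 ± 0.35 in liver and 5.58 ± 0.24 in kidney. The first 4 were apart from each other and the last 4 overlapped their neighbours, and Bhlhe41 was lowest at rest in liver and kidney.

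Tef spanned 6.98-fold and averaged 9.78 ± 0.11 in muscle, 9.45 ± 0.15 in kidney, 9.35 ± 0.07 in brain, 8.68 ± 0.16 in visceral fat, 8.56 ± 0.37 in liver, 7.49 ± 0.81 in subcutaneous fat and 6.98 ± 0.27 in spleen. Kidney overlapped brain, and every neighbour from visceral fat to spleen overlapped the next. Nr1d2 spanned 4.32-fold, from 9.87 ± 0.09 in muscle through 9.33 ± 0.08 in brain, 9.32 ± 0.19 in liver, 9.17 ± 0.14 in kidney, 8.64 ± 0.12 in visceral fat and 8.17 ± 0.36 in subcutaneous fat to 7.76 ± 0.09 in spleen. Brain, liver and kidney overlapped in that order. Rora spanned 10.5-fold and averaged 10.34 ± 0.11 in muscle, 10.15 ± 0.11 in brain, 9.81 ± 0.14 in liver, 9.19 ± 0.13 in kidney, 9.12 ± 0.19 in visceral fat, 8.37 ± 0.67 in subcutaneous fat and 6.94 ± 0.10 in spleen. The spleen arrays lay below those of every other tissue.

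Wee1 spanned 3.29-fold and averaged 8.19 ± 0.17 in brain, 7.74 ± 0.21 in kidney and 7.57 ± 0.08 in spleen, and 6.83 ± 0.06 in muscle, 6.78 ± 0.08 in visceral fat, 6.62 ± 0.16 in liver and 6.47 ± 0.31 in subcutaneous fat. The last 4 could not be ordered, since each overlapped the next. Bhlhe40 spanned 3.39-fold, with 9.28 ± 0.29 in muscle, 9.05 ± 0.25 in kidney, 8.85 ± 0.82 in liver, 8.64 ± 0.16 in brain, 8.11 ± 0.22 in subcutaneous fat, 7.56 ± 0.04 in spleen and 7.52 ± 0.60 in visceral fat. Muscle, kidney, liver and brain overlapped in that order, and spleen overlapped visceral fat. The highest tissue of Hlf was kidney with arrays centred on their medians, and the lowest of Bhlhe40 was then spleen. With values as deposited the lowest of Wee1 was liver, and every other highest and lowest tissue was the same under both scalings.

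**Figure D3:**
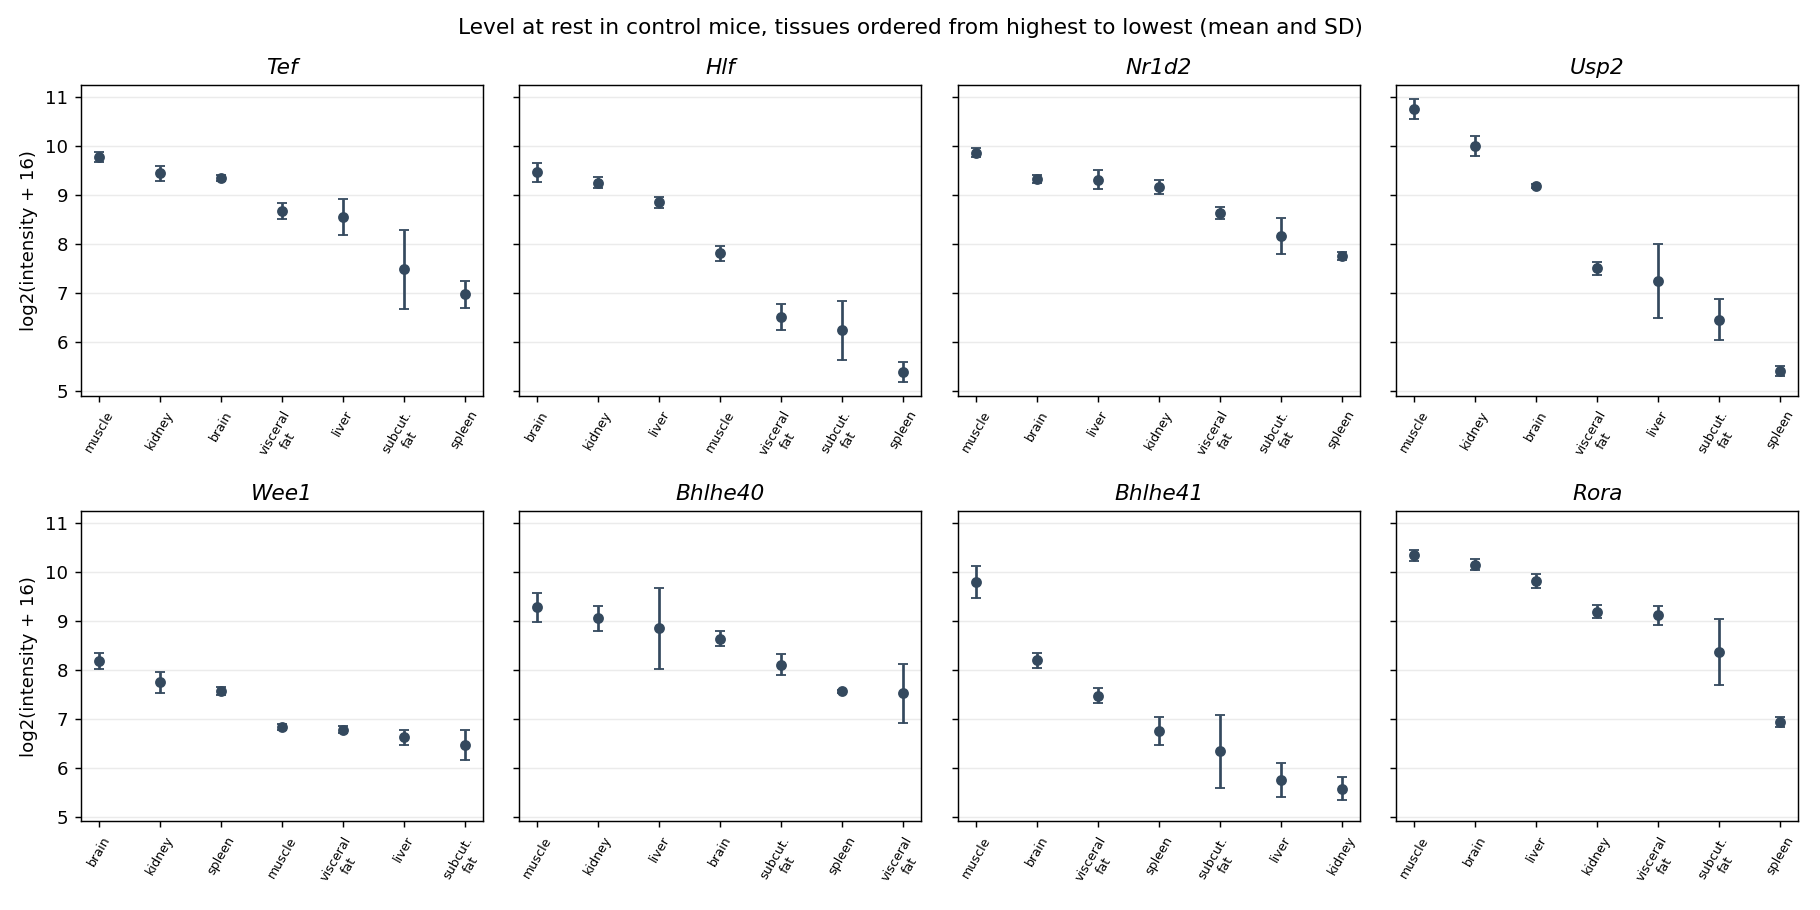
Level of each gene in control mice (y axis, log2(intensity + 16), quantile normalized over all 54 arrays), as the mean and SD over the control arrays, with tissues ordered from highest to lowest. Muscle comes first for 6 genes and spleen last for 5, and subcutaneous fat and liver carry the widest bars.

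Other clock genes were set beside the 8. They were the activators and repressors of the loop, Nfil3 and another receptor of the REV-ERB and ROR group. Of 12 other clock genes on the array, 5 rose and 4 fell of 11 tested in visceral fat, 3 rose and 4 fell of 11 in liver, 5 rose and 3 fell of 10 in kidney, 5 rose and 3 fell of 11 in muscle, 2 rose and none fell of 7 in spleen, and none passed of 12 in brain or of 11 in subcutaneous fat. Per3, a repressor of the loop, rose by 2.09 in visceral fat, 2.03 in liver, 1.12 in kidney, 0.69 in spleen and 1.39 in muscle, and its changes in subcutaneous fat and brain were 2.35 and 0.48 (limma adjusted p = 0.166 and 0.0543). Ciart, which encodes another repressor of CLOCK and BMAL1, rose by 2.95 in visceral fat, 3.29 in liver, 1.67 in kidney and 2.22 in muscle. Arntl fell by 2.28 in visceral fat, 2.37 in liver, 1.37 in kidney and 1.64 in muscle, and its changes in subcutaneous fat, spleen and brain were -1.51, 0.05 and -0.13 (limma adjusted p = 0.193, 0.613 and 0.688). Nfil3, whose product opposes TEF and HLF at the D-box, fell by 0.68 in visceral fat and by 1.12 in liver, and its changes in kidney, brain and muscle were -0.16, -0.10 and -0.47. Of all genes, 11.3% rose and 12.1% fell in visceral fat, 1.84% and 2.16% in liver and 10.8% and 13.6% in kidney. In spleen the shares were 7.04% and 6.97%, and in muscle 5.68% and 5.68%. The comparisons within a tissue share all their arrays. Dbp and Nr1d1 are not analysed here.

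**Figure D4:**
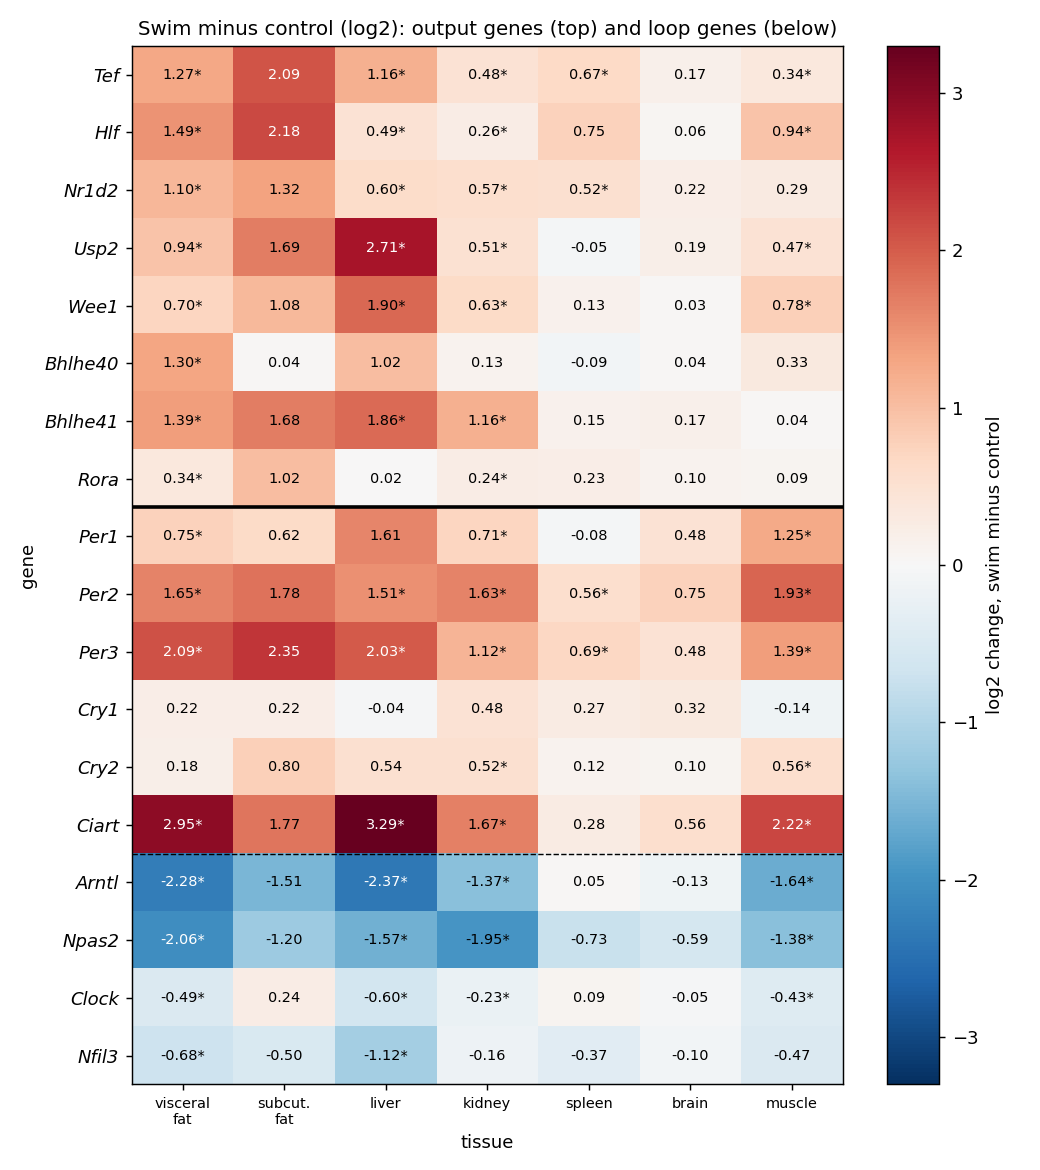
Change on the log2 scale (colour and printed value, swim minus control) of the 8 output genes above the solid line, repressors of the loop below it, and activators with Nfil3 below the dashed line. An asterisk marks an adjusted p under 0.05 in limma. Apart from Cry1, output genes and repressors are at or above 0 in visceral fat, liver, kidney and muscle, where Arntl, Npas2 and Clock are blue, and brain carries no asterisk. These are 3 of the 4 activators listed. In visceral fat 3 of the 4 fell and 1, which is not drawn, rose. In liver, kidney and muscle 3 of the 4 fell and 1 did not pass.

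Genes known to be regulated by the PAR bZIP factors were few above the filter outside liver. The shares of all genes that rose and fell are those given above with the other clock genes. In liver 2 of 10 rose, Cyp2a5 by 0.60 and Cyp2b10 by 1.60, and Elovl3, a fatty acid elongase, fell by 1.53. Cyp2a5 and Cyp2b10 encode cytochromes P450 of drug metabolism. In visceral fat Gstt2 rose by 0.64 and Ppara by 0.37 while Alas1 fell by 0.40, of 4 tested, and in kidney Pdxk rose by 0.52 and Ppara by 0.31, of 6 tested. Pdxk, the kinase that makes the active form of vitamin B6, was also the only call of 4 tested in muscle, at 0.57. None passed in spleen, brain or subcutaneous fat.

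The lists that follow are counted beside the shares of all genes that rose and fell. These were 11.3% and 12.1% in visceral fat, 1.84% and 2.16% in liver and 10.8% and 13.6% in kidney. In spleen they were 7.04% and 6.97%, and in muscle 5.68% and 5.68%. A list of 20 other rhythmic genes, 16 of them on the array, moved in both directions. It counted 6 that rose and 4 that fell of 16 in visceral fat, 8 and 3 of 16 in kidney, 2 and 2 of 16 in liver, 2 and 1 of 16 in muscle and 0 and 3 of 13 in spleen. Coq10b, which encodes a coenzyme Q binding protein, rose by 0.61 in visceral fat, 1.08 in liver and 0.36 in kidney, and Dtx4 fell by 1.21, 0.69 and 0.68 in the same tissues. Clock modifiers, the kinases, ubiquitin ligases and cofactors of the loop, gave a single call in all tissues, Gsk3b in spleen at 0.16 (limma adjusted p = 0.0463). Glucocorticoid-responsive genes counted 2 that rose and 2 that fell of 14 in visceral fat, 1 and 1 of 15 in liver and 2 and 2 of 14 in kidney. In spleen the counts were 2 and 5 of 14, and in muscle 2 and 1 of 15. Per1, itself a gene of the loop, was among those that rose in visceral fat, kidney and muscle. Hypoxia-responsive genes counted 3 that rose and 1 that fell of 13 in visceral fat, 2 and 1 of 12 in liver, 4 and 3 of 13 in kidney, 1 and 0 of 13 in spleen and 1 and 0 of 14 in muscle. Neither list had a call in brain or subcutaneous fat.

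The genes most like each member were those of highest Pearson correlation over the 54 arrays, after each tissue's mean was taken off. The points share arrays and tissues and hold the swim change itself, so the values are descriptions. All 54 arrays counted alike, the mixed subcutaneous arrays with their wide spread among them. The part of those arrays in these values was not tested. Per3 was first for Tef (r = 0.929), Nr1d2 (0.937), Wee1 (0.854) and Bhlhe41 (0.897) and second for Hlf (0.876) after the long noncoding RNA gene Firre (0.891). Usp2 was most like Coq10b (0.83), Gstt2 (0.814) and Ppargc1a (0.814), a coactivator of mitochondrial genes. Arntl was the gene most opposite to Wee1 (-0.886). Among the members, Tef and Nr1d2 had r = 0.942, Tef and Hlf 0.923, and Hlf and Nr1d2 0.921, and the lowest was Bhlhe40 with Rora, at 0.183. Rora was most like Afdn (0.891), Syne2 (0.873) and Dennd4c (0.872), none of them a clock gene of the lists, and Bhlhe40 had no gene above Mtss1 (0.621). When each group's mean was taken off instead, which leaves only the spread between arrays of a group, Tef and Hlf had 0.752 and Tef and Nr1d2 0.706, while Wee1 and Per3 had 0.243. Usp2 with Ppargc1a then had 0.817 and Rora with Afdn 0.818. That spread includes Usp2 at 9.69 in subcutaneous swim array 22, the array with kidney tubule markers.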

How the data were processed

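Total RNA from 54 tissue samples was hybridized to Affymetrix Mouse Gene 1.1 ST arrays. The authors deposited linear intensity values, and PLIER and limma were used per the submitters' processing notes, and neither their versions nor a build are given in the sources used here. The planned tests assumed normalized values, but arrays of a group differed, so log2(intensity + 16) values were computed from the deposited values and quantile normalized within each tissue (over all arrays for levels at rest). Probe sets in the lowest 40% by mean were dropped, and a gene was read from its brightest probe set. Of the probe sets, 21086 had 1 symbol, and 1867 with several and 2964 with none were left out. limma 3.58.1 in R 4.3.3 (lmFit, eBayes, two-sided) gave swim minus control in each tissue, with Benjamini-Hochberg adjustment over all genes and a threshold of 0.05. A fit of 14 group means, arrays weighted by their tissue's spread, compared tissues. Tested on simulated data, it called more unchanged genes than its threshold allows, so a fit with each tissue's own spread, added after seeing the data, is given beside it. The array number limits precision. Promoter sequences came from RefSeq. Plots used matplotlib 3.10.9. The members and gene lists were chosen with earlier results of these data known. Genes named outside the 8 were up to 4 of lowest p per list and tissue, followed across tissues, with Arntl and Per3, and the 3 of highest correlation. No array was left out of the main comparisons.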

Additional observations from a re-analysis of the deposited data

Results flagged for a closer look

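The change between swim and control arrays differed between the 7 tissues for 7 of the 8 genes, by an F test in limma over all 54 arrays. That test took the arrays as independent, and the labels do not say whether tissues share mice. The adjusted p was 2.61e-06 for Tef, 5.15e-08 for Hlf, 1.16e-05 for Nr1d2, 2.9e-09 for Usp2, 7.46e-11 for Wee1, 0.00381 for Bhlhe40 and 3.34e-08 for Bhlhe41. The changes ranged from 0.17 to 2.09 for Tef, 0.06 to 2.18 for Hlf, 0.22 to 1.32 for Nr1d2, -0.05 to 2.71 for Usp2, 0.03 to 1.90 for Wee1, -0.09 to 1.30 for Bhlhe40 and 0.04 to 1.86 for Bhlhe41.

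Each of the 8 genes was checked in each of the 12 groups of 4 arrays, 96 checks in all. Hlf and Usp2 in spleen, below the filter, were included. In 10 of the checks 1 array lay far from the other 3 by Dixon's test. The genes share arrays, so this count is not set against the test's chance rate of about 1 in 20. In visceral fat, swim array 5 had Tef at 10.16, against 10.01 to 10.03 in the others. In kidney, control array 11 had Tef at 9.30, against 9.58 to 9.63, and control array 12 had Rora at 9.07, against 9.32 to 9.33. In brain, swim array 38 had Hlf at 9.80, against 9.49 to 9.52, swim array 39 had Bhlhe41 at 8.48, against 8.58 to 8.59, and control array 36 had Bhlhe41 at 8.59, against 8.30 to 8.34. In liver, swim array 56 had Wee1 at 7.91, against 8.32 to 8.39. In spleen, control array 26 had Bhlhe40 at 7.56, against 7.63 to 7.64, and control array 27 had Bhlhe41 at 6.41, against 6.97 to 7.001. In subcutaneous fat, control array 17 had Rora at 9.27, against 7.97 to 8.08, and it is the array without which 7 of the 8 genes passed there.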

How the results depend on the processing

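The calls of Tef, Hlf, Nr1d2, Usp2, Wee1, Bhlhe40 and Bhlhe41 in visceral fat, Usp2, Wee1 and Bhlhe41 in liver, Bhlhe41 in kidney, Tef in spleen and Hlf in muscle held in every setting in which they were tested and with any 1 array left out. Bhlhe41 in liver and kidney was above the filter only through its swim arrays, so its calls there carry that limit. Of 737 values recomputed under other settings, 639 kept their direction and side of the threshold, 41 lost and 35 gained a call and 22 turned; with 1 array or the subcutaneous arrays left out the counts were 401, 39, 11 and 21 of 472. Causes were not tested. No paired analysis was possible because the array numbers are not shared between groups. Rora kept its call in 6 of 11 settings in visceral fat and 7 of 11 in kidney, Hlf in liver in 6 of 11, and Tef and Usp2 in muscle in 7 of 11 each.

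With values as deposited, genes called numbered 601 in visceral fat (2677 in the report's fit), 4 in subcutaneous fat (0), 42 in kidney (2836), 5127 in spleen (1591), 3 in brain (56) and 393 in muscle (1289), and members called 1 in subcutaneous fat (0), 1 in kidney (7) and 1 in muscle (4). Centred on array medians, visceral fat had 5209 genes and muscle 2 members. That scaling moved the median of all genes to -0.218 in visceral fat, 0.114 in subcutaneous fat and -0.111 in muscle, and values as deposited to -0.101, 0.111, 0.106, -0.273, -0.196 and -0.228 in visceral fat, subcutaneous fat, kidney, spleen, brain and muscle. Without the filter liver had 294 genes (448) and muscle 599 genes and 2 members; with 60% left out brain had 29. A trended, robust fit gave 707 in liver. Array weights gave 5715 genes and 7 members in subcutaneous fat, 3122 and 2 in brain and 2754 genes in muscle. A single fit of all arrays gave 6626 genes and 7 members in subcutaneous fat, 382 and 3 in kidney, 597 genes in spleen, 129 in brain, and 625 and 2 in muscle. With 1 array left out, genes called ranged from 1695 to 2340 in visceral fat, 0 to 3976 in subcutaneous fat, 127 to 529 in liver, 571 to 2181 in spleen, 15 to 69 in brain and 69 to 1127 in muscle, and members from 0 to 7 in subcutaneous fat, 3 to 6 in liver (3 without swim array 54) and 2 to 4 in muscle. Muscle had 69 genes without swim array 46, and brain 15 without control array 33.

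Changes that turned were small. As deposited they were -0.085, -0.16 and -0.040 for Bhlhe41, Wee1 and Rora in spleen, -0.17, -0.051, -0.17, -0.029, -0.18, -0.037 and -0.13 for Hlf, Tef, Bhlhe40, Bhlhe41, Wee1, Usp2 and Rora in brain, and -0.24 and -0.20 for Bhlhe41 and Rora in muscle. Centred on medians they were -0.069, -0.068, -0.076 and -0.030 for Hlf, Bhlhe40, Wee1 and Rora in brain and -0.12 and -0.079 for Bhlhe41 and Rora in muscle. With array weights they were -0.033, -0.036 and -0.019 for Hlf, Bhlhe40 and Wee1 in brain and -0.15 for Bhlhe40 in subcutaneous fat. With 1 array left out the ranges were -0.19 to 0.19 for Bhlhe40 in subcutaneous fat, -0.067 to 0.097 for Rora in liver, -0.025 to 0.097 for Hlf, -0.041 to 0.11 for Bhlhe40, -0.011 to 0.097 for Wee1 and -0.082 to 0.26 for Rora in brain, and -0.10 to 0.16 for Bhlhe41 in muscle. Set against the other tissues without subcutaneous fat, Wee1 in visceral fat was 0.0079, Nr1d2 in liver 0.060, Nr1d2 and Rora in kidney 0.020 and 0.082, and Hlf and Rora in spleen 0.11 and 0.068.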
